A study of Mus musculus with 12 samples.

Results

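Gene expression was compared between LSK cells of Tet2 mutant (Mut) mice and LSK cells of wild-type (WT) mice. The members were chosen by their labels as the 2 libraries titled LSK Mut and the 2 titled LSK WT, 4 of the 12 libraries of the series. The other 8 libraries are LSK cells of Tet2 knockout (KO) mice and cells labelled MPP (multipotent progenitor) of Mut, KO and WT mice, in groups of 2. All mice were 10 weeks old, of a mixed 129/C57/B6 strain, and carried no treatment in the labels. The marrow of 2 mice was pooled for each genotype, the cells were sorted by flow cytometry, and each pool gave 2 technical replicate libraries. P values and SDs below thus reflect how far libraries of 1 pool differ, and mice of a genotype were not compared with each other. The labels do not describe the Mut allele or the KO allele, and the question, by the title of the series, concerns what Tet2 does apart from its enzyme activity.

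LSK cells are the lineage-negative marrow cells that carry Sca-1 and Kit at their surface. They include the blood stem cells and the earliest multipotent progenitors, from which myeloid, lymphoid, erythroid and megakaryocyte cells arise. Tet2 is a dioxygenase that oxidises 5-methylcytosine in DNA, and it also binds other nuclear proteins. Loss of TET2 function is frequent in human myeloid malignancies and in clonal haematopoiesis. As stem cells enter the granulocyte-monocyte route they switch on the enzymes of the primary granules, such as myeloperoxidase and neutrophil elastase, and leave quiescence.

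The libraries held 16638518 and 17186565 gene counts in Mut, and 9181027 and 12098928 in WT, so that WT was sequenced less deeply. At least 1 count was found for 13561 and 14213 genes in Mut, and for 12470 and 12614 genes in WT. Technical replicates of Mut lay closer together than those of WT. Among genes that averaged 50 counts or more, the median absolute log2 difference between the replicates was 0.267 in Mut, 0.251 in KO and 0.567 in WT. In 19 such genes 1 of the Mut libraries had 0 counts, as against 169 genes in WT. Part of what is reported below thus rests on WT libraries that are shallower and less alike, and the part of depth in the results was not tested. A count of 0 allows a level of up to 0.180 and 0.175 CPM (counts per 1000000 counts of a library) in the Mut libraries and 0.327 and 0.248 CPM in the WT libraries, taking 3 counts as the limit and covering counting error alone.

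**Figure D1:**
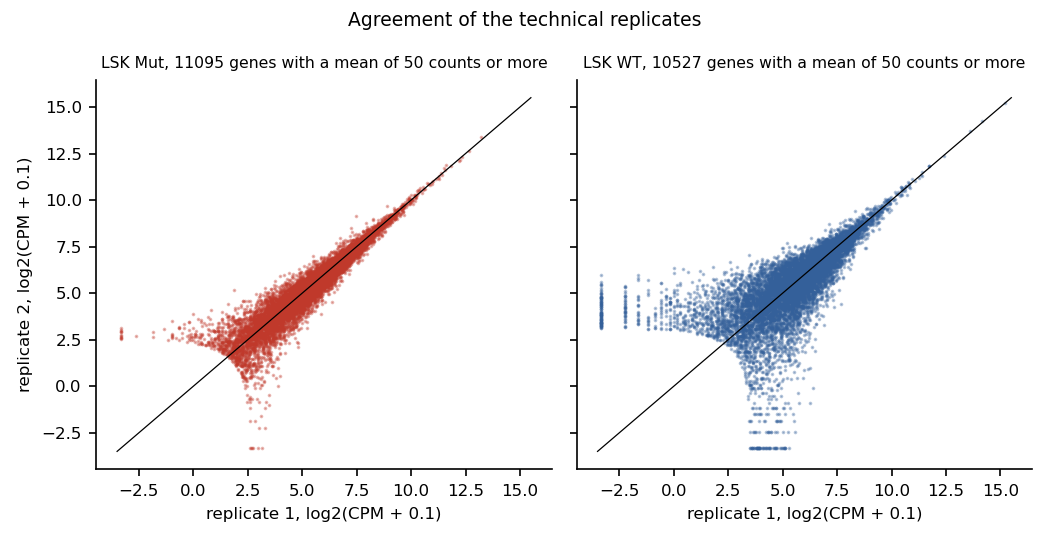
Agreement of the technical replicates of LSK Mut (left, 11095 genes) and LSK WT (right, 10527 genes). Each point is a gene that averaged 50 counts or more in its group, and the axes give log2(CPM + 0.1) in replicate 1 and replicate 2. The points spread more widely around the line of equality in WT, where the median absolute log2 difference was 0.567 against 0.267 in Mut.

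Of 13170 genes tested, 71 were higher in Mut (0.539%) and 97 were lower (0.737%), 168 in all (1.28%), by edgeR's quasi-likelihood test at an adjusted p (Benjamini-Hochberg) below 0.05. These are the genes named as called, risen or fallen below. Without adjustment, 1347 genes were higher (10.2%) and 1171 were lower (8.89%) at p below 0.05, and chance alone gives about 658 in both directions together. The median log2 difference of all genes, Mut minus WT, was 0.01. The called genes that were higher had a median level of 269 CPM in Mut and 140 CPM in WT, and the lower ones 138 CPM in Mut and 326 CPM in WT. The split between directions depended on the scaling, with 120 genes higher and 84 lower by library size alone, 114 higher and 90 lower by upper quartile scaling, and 2980 higher and 22 lower by the ERCC spike-ins described below. With the spread taken from the 4 compared libraries alone, without KO, 5 genes were called, 1 higher and 4 lower. The number of calls also depended on single libraries. It was 5 without Mut replicate 1, 6 without Mut replicate 2, 11 without either KO library (the KO libraries share the estimate of the spread), 2430 without WT replicate 1 and 2631 without WT replicate 2. The called genes kept their call when either WT library was left out, and most lost it without a Mut library. With 1 WT library left, the WT pair, which is the least alike, no longer enters the estimate of the spread. Keeping a call there is thus no sign that it is stable to the WT libraries. The 5 that were called without each of the 6 LSK libraries in turn were Mpo (higher) and Rplp1, Lars2, Rn45s and Malat1 (lower).

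**Figure D2:**
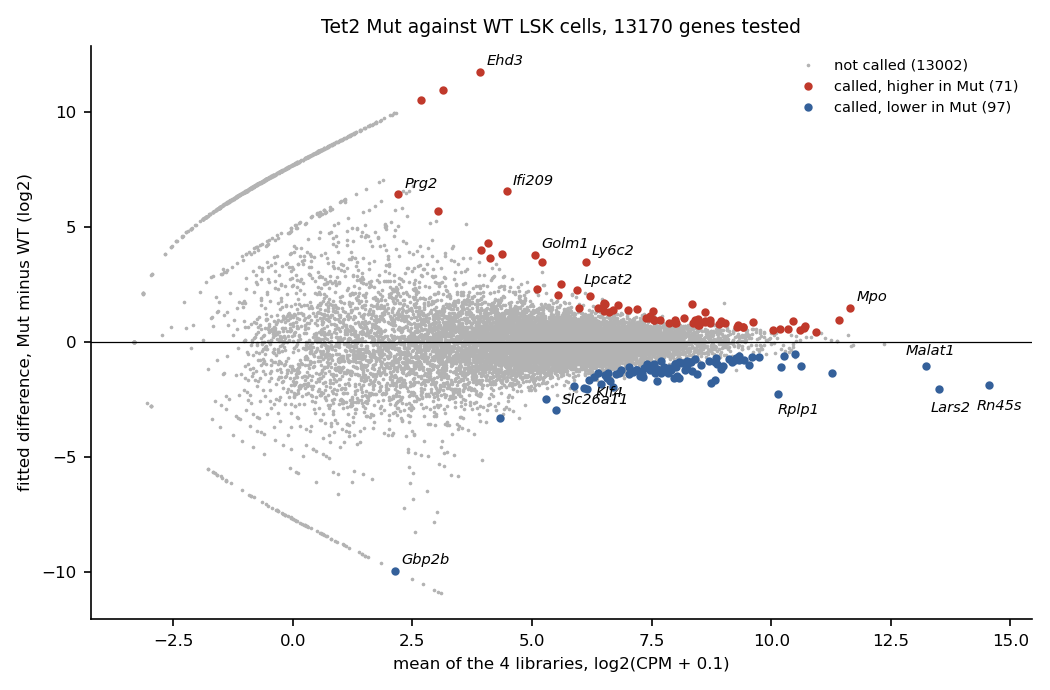
Fitted log2 difference (Mut minus WT, vertical axis) against the mean level of the 4 libraries (log2(CPM + 0.1), horizontal axis) for the 13170 genes tested. Red points are the 71 genes called higher in Mut and blue points the 97 called lower, and the arcs at the left are genes with 0 counts in both libraries of a group. Of the 168 called genes, 155 lie above the median level of the genes tested (34.4 CPM) and 13 below it.

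All levels above are shares of a library, so each difference is relative to the other genes. Scaling by the ERCC spike-ins (control RNAs added to the samples) moved the median of all genes to 1.10 on the log2 scale. The spike-ins took 0.139% and 0.0822% of counts in Mut, against 0.229% and 0.193% in WT. Under that scaling the 71 higher genes remained above 0, while 59 of the 97 lower genes remained below 0 and 38 did not. Directions below are therefore relative to the median gene. Under spike-in scaling the median of every gene list was above 0, also where it is below 0 in the main fit. Examples are the Hox and Meis (0.55), circadian clock (0.55) and lymphoid priming (0.70) lists. Called genes named below that changed direction are given as such.

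Tet2 itself (chromosome 3, 133463679 to 133545139, minus strand, GRCm38) stood at 45.7 and 46.7 CPM in the Mut libraries, at 30.5 and 33.6 CPM in KO, and at 92.6 and 67.1 CPM in WT. The Mut libraries lay below both WT libraries, but the difference of -0.79 (log2, SE 0.305) missed the threshold (adjusted p = 0.221). The difference ranged from -1.0 (without WT replicate 2) to -0.54 when single libraries were left out, and it changed sign under spike-in scaling. The table counts reads over the whole gene and cannot show a change of residues. Tet1 was at 72.4 and 55.0 CPM in Mut and at 67.5 and 80.0 CPM in WT, and Tet3 at 71.4 and 75.0 CPM in Mut and at 141 and 80.5 CPM in WT. Neither of these related dioxygenases passed the threshold in the fit of all 6 LSK libraries (adjusted p = 0.723 for Tet1 and 0.327 for Tet3). The Tet3 difference ranged from -0.93 (without WT replicate 2) to -0.13 when single libraries were left out.

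Mpo, Elane, Ly6c2 and Nkg7, which belong to the primary granules of granulocyte-monocyte progenitors or their cells, rose in Mut. Of 19 members of this list 4 rose and 0 fell, and 16 were higher and 1 lower at an unadjusted p below 0.05. The median difference of the list was 0.83, against 0.01 for all genes. Mpo, the myeloperoxidase of neutrophil granules, reached 4902 and 4558 CPM in Mut, against 1615 and 1754 CPM in WT. The Mut libraries were 2.81-fold higher (log2 1.49, SE 0.0695, adjusted p = 0.00022), and the groups were far apart. Elane, neutrophil elastase, stood at 491 and 491 CPM in Mut and at 128 and 190 CPM in WT (log2 1.63, SE 0.200, adjusted p = 0.0241). Ly6c2, a surface marker of monocytes and their progenitors, had 126 and 129 CPM in Mut, against 5.04 and 17.6 CPM in WT (log2 3.48, SE 0.543, adjusted p = 0.0388). It has near-identical relatives in the Ly6 cluster, so its count is uncertain. Nkg7, a protein of cytotoxic granules that is also found in myeloid progenitors, had 452 and 441 CPM in Mut, against 249 and 289 CPM in WT (log2 0.73, SE 0.127, adjusted p = 0.0476). Cathepsin G and proteinase 3, which share the granules, missed the threshold. Ctsg was at 302 and 374 CPM in Mut and at 134 and 197 CPM in WT (adjusted p = 0.0639), and Prtn3 at 533 and 542 CPM in Mut and at 242 and 394 CPM in WT (adjusted p = 0.138). Of these genes Mpo alone kept its call without any single Mut or KO library. The list median ranged from 0.78 to 1.16 when single libraries were left out.

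The stretches upstream of the start sites of these 4 genes are printed to show what they have in common and where they differ. Each is the 250 bases before the start listed by RefSeq (GRCm38.p6), or before the first of 2 listed for Ly6c2. By GENCODE M21 the Mpo, Elane and Nkg7 genes start inside these stretches, at 87793581, 79886247 and 43437073. Capitals mark GAGGAAGT, letters of the binding motif of PU.1, the transcription factor that drives early myeloid genes. The motif was chosen after its matches had been seen.
Mpo, chr11:87793534-87793783, plus strand: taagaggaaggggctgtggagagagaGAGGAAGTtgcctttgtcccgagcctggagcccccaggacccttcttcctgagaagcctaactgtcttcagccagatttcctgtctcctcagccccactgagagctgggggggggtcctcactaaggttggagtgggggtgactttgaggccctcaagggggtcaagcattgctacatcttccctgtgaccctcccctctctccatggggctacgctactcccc
Elane, chr10:79886062-79886311, plus strand: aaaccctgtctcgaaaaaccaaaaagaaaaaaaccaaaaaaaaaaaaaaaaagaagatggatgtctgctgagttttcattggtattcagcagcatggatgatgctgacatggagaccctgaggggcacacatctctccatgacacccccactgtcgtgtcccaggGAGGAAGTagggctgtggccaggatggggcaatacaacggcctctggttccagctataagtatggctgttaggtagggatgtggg
Ly6c2, chr15:75111972-75112221, minus strand: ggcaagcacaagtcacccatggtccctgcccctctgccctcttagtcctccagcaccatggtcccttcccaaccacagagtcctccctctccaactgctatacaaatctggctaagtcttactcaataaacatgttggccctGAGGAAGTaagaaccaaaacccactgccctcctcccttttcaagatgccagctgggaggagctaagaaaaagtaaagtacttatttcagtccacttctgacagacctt
Nkg7, chr7:43436888-43437137, plus strand: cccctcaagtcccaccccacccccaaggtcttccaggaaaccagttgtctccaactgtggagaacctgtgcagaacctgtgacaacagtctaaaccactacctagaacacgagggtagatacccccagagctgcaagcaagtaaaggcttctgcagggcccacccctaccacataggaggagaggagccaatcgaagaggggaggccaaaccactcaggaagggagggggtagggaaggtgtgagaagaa
A search of both strands over the window from 250 bases before to 50 after the start found GAGGAAGT in the windows of Mpo, Elane and Ly6c2 but not in the Nkg7 window. Of all 32851 such windows of the genome, 1052 (3.20%) hold it. The motif TTNCNNAA of C/EBP factors, which act on the same genes, was in 1 of the 4 windows (Ly6c2) and in 40.7% of all windows. A match describes the letters and is not evidence of binding.

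Markers of other cell types gave few calls, as did all genes tested (1.28%). In short lists 0 calls therefore say little about a cell type. The 12 tested members of the late neutrophil granule list, whose proteins appear after the primary granules, had 0 calls by edgeR. Their median was -0.90, or 0.09 under spike-in scaling. At an unadjusted p below 0.05, 2 were higher and 4 lower, or 0 and 3 among the 7 with counts in both groups, and DESeq2 called 0 higher and 2 lower. Summed over the list they gave 107 and 123 CPM in Mut, against 195 and 281 CPM in WT. S100a8 was at 20.5 and 28.4 CPM in Mut and at 43.0 and 91.2 CPM in WT (log2 -1.46, adjusted p = 0.198). The globin genes Hba-a1, Hba-a2, Hbb-bs and Hbb-bt, the B cell genes Ms4a1 and Pax5, and the stromal genes Col1a1, Col3a1 and Dcn had 0 counts in all 4 libraries. Summed monocyte and macrophage markers gave 141 and 140 CPM in Mut and 115 and 147 CPM in WT, with 0 calls by edgeR and 2 by DESeq2 among 15, and 4 higher and 0 lower without adjustment, or 0 and 0 among the 9 with counts in both groups. Summed T and NK cell markers gave 547 and 521 CPM in Mut and 386 and 408 CPM in WT, with Nkg7 the call among 12, 3 higher and 2 lower without adjustment, 1 higher and 1 lower by DESeq2, and Cd3e at 0 in all 4 libraries. Without Nkg7 the sum was lower in Mut, at 95.0 and 79.3 CPM, than in WT, at 137 and 119 CPM. By edgeR 0 genes were called among 6 B cell, 11 mast cell and basophil, 19 megakaryocyte and 16 erythroid genes tested, and DESeq2 called 0, 4, 1 and 4 of them. Over all 13170 genes DESeq2 called 1409. At an unadjusted p below 0.05 the higher and lower members were 2 and 0, 2 and 3, 0 and 1, and 2 and 3 in the same order of lists. Among members with counts in both groups they were 1 and 0 of 5 B cell genes, and 1 and 3 of 10 mast cell and basophil genes. The eosinophil gene Prg2 had 124 and 186 counts in Mut and 0 and 2 in WT, while the eosinophil peroxidase gene Epx had 0 counts in all 4 libraries. Ear1, an eosinophil ribonuclease gene, had 0 and 0 counts in Mut and 70 and 0 in WT. Of 7 eosinophil genes tested Prg2 was called, and 1 was higher and 1 lower without adjustment, or 1 and 0 among the 3 with counts in both groups. The summed list was at 34.6 and 41.3 CPM in Mut and at 48.9 and 1.62 CPM in WT. In MPP cells the primary granule genes were far more abundant than in LSK cells, with Mpo at 33136 ± 1045 CPM in Mut and 37456 ± 952 CPM in WT (SD, n = 2). The share of LSK libraries that could stem from more mature cells was not tested, and more cells of a type and more RNA per cell cannot be told apart in bulk RNA.

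B2m, Cd74 and H2-Ab1, genes of antigen presentation, rose in Mut as well. B2m, the invariant chain of MHC class I, had 3592 and 3626 CPM in Mut, against 1753 and 1986 CPM in WT (log2 0.95, SE 0.0797, adjusted p = 0.00593). In the list of dendritic cell and MHC class II genes 2 of 16 tested rose and 0 fell, 8 were higher and 2 lower at an unadjusted p below 0.05, and the median was 1.34. Of the 16, 3 passed the filter on low counts with 0 counts in both WT libraries, and among the other 13 there were 6 higher and 2 lower, with a median of 0.50. The summed list gave 2178 and 2189 CPM in Mut and 1666 and 1993 CPM in WT. Cd74, the invariant chain that guides class II molecules, was at 215 and 213 CPM in Mut and at 70.3 and 89.8 CPM in WT (log2 1.42, SE 0.188, adjusted p = 0.0292). H2-Ab1, the beta chain of the I-A molecule, was at 165 and 171 CPM in Mut and at 51.5 and 57.5 CPM in WT (log2 1.62, SE 0.281, adjusted p = 0.0476). Its partner H2-Aa missed the threshold (66.8 and 61.2 CPM in Mut, 8.06 and 14.7 CPM in WT, adjusted p = 0.0513). So did Irf8, a transcription factor of monocytes and dendritic cells (183 and 187 CPM in Mut, 58.3 and 95.1 CPM in WT, adjusted p = 0.0578). The dendritic cell genes Siglech, Batf3, Zbtb46, Cd209a and Xcr1 had 0 counts in both WT libraries and at most 1.82 CPM in a Mut library. Both calls were lost without any single Mut or KO library. The list median, taken over all members tested, ranged from 1.11 to 1.69 when single libraries were left out.

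Calls among interferon-inducible genes went in both directions. Of 38 tested members of the interferon response list, 2 rose and 0 fell, and the median was 0.17. At an unadjusted p below 0.05, 7 were higher and 3 lower, or 6 and 3 among the 37 with counts in both groups. Ifi47, a GTPase of the p47 family, was at 141 and 158 CPM in Mut and at 58.9 and 57.6 CPM in WT (log2 1.36, SE 0.198, adjusted p = 0.0328). Ifi209, of the Ifi200 family of DNA-binding proteins, was at 47.7 and 39.8 CPM in Mut and at 0 and 0.854 CPM in WT (log2 6.56, SE 1.10, adjusted p = 0.0445). Mndal, of the same family and also on chromosome 1, fell, with 37.3 and 56.0 CPM in Mut and 154 and 148 CPM in WT (log2 -1.69, SE 0.259, adjusted p = 0.0375). The family members are similar in sequence, and how reads shared by them were counted is not given in the sources used here. Among 16 interferon-induced GTPases tested, 0 rose and 1 fell, with 7 higher and 2 lower at an unadjusted p below 0.05 and a median of 1.0. Among the 15 with counts in both groups, 7 were higher and 1 lower without adjustment. The fallen member was Gbp2b, a guanylate-binding protein (chromosome 3, 142594847 to 142619179). It had 0 and 0 counts in Mut, 507 and 475 counts in KO, and 77 and 101 counts in WT. Mut was at least 99.4-fold lower than WT, taking 3 counts over the group as the limit (adjusted p = 0.0235). The gene lies 9.05 Mb from Tet2. A further gene of immune cells, Serpina3g, a protease inhibitor, rose to 572 and 548 CPM in Mut, against 235 and 215 CPM in WT (log2 1.32, SE 0.120, adjusted p = 0.00907).

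**Figure D3:**
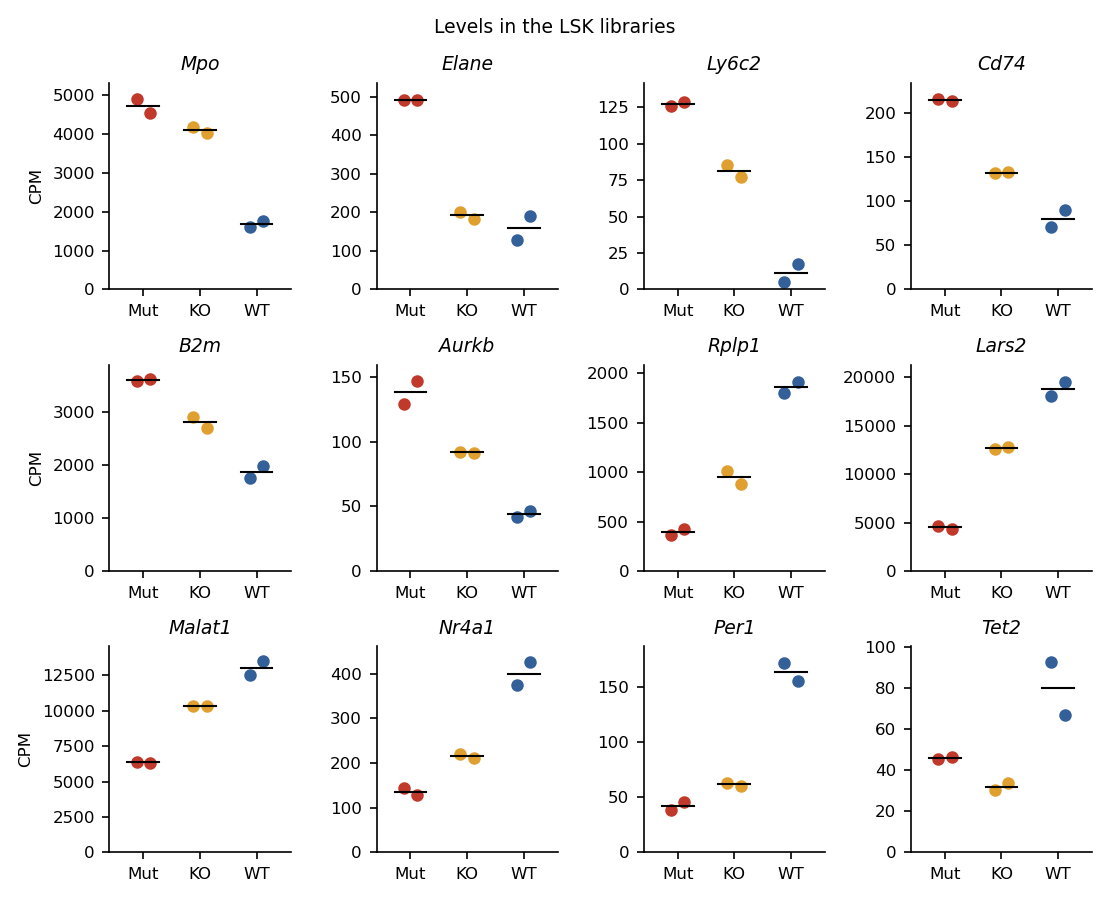
Levels (CPM, vertical axes from 0) of 12 genes in the LSK libraries of Mut, KO and WT. Points are single libraries and bars are means of 2. Mpo, Elane, Ly6c2, Cd74, B2m and Aurkb lie higher in Mut than in WT, and Rplp1, Lars2, Malat1, Nr4a1 and Per1 lower, with Tet2 at 45.7 and 46.7 CPM in Mut and 92.6 and 67.1 CPM in WT. Of these, Malat1 changed direction under spike-in scaling (log2 0.06), as did Tet2 (0.33).

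Cell division and energy metabolism held further risen genes. Aurkb, the kinase that corrects chromosome attachment in mitosis, was at 130 and 147 CPM in Mut and at 41.5 and 46.5 CPM in WT (log2 1.65, SE 0.220, adjusted p = 0.0292). Oip5, which loads the centromeric histone, was at 29.5 and 34.8 CPM in Mut and at 2.35 and 0.939 CPM in WT (log2 4.30, SE 0.675, adjusted p = 0.0388). These were the 2 mitosis genes that rose of 46 tested, and 0 fell, with a list median of 0.33. Mki67 and Top2a, the most abundant members, gave -0.59 (adjusted p = 0.268) and -0.17 (adjusted p = 0.528). Of 40 DNA replication genes 1 rose, the helicase subunit Mcm2 (442 and 450 CPM in Mut, 252 and 207 CPM in WT, adjusted p = 0.0368), and 0 fell. At an unadjusted p below 0.05, 11 replication genes were higher and 3 lower, as were 11 and 0 of the mitosis genes.

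Idh2, the mitochondrial isocitrate dehydrogenase whose product 2-oxoglutarate is a cosubstrate of Tet enzymes, was at 649 and 692 CPM in Mut and at 385 and 368 CPM in WT (log2 0.83, SE 0.106, adjusted p = 0.026). It was the call among 22 citric acid cycle genes, of which 11 were higher and 1 lower at an unadjusted p below 0.05 (median 0.47). Ldha, which reduces pyruvate to lactate, was the call among 19 glycolysis genes (1209 and 1238 CPM in Mut, 887 and 838 CPM in WT, adjusted p = 0.0419). Of these 19, 8 were higher and 1 lower without adjustment (median 0.51). Among 74 nuclear-encoded genes of oxidative phosphorylation 4 rose and 2 fell, 14 were higher and 9 lower at an unadjusted p below 0.05, and the median was 0.06. The risen were Uqcrc1 of complex III and Atp5a1, Atp5b and Atp5c1 of the ATP synthase core, with log2 differences between 0.54 and 0.92. The fallen were the small subunits Ndufa2 of complex I (log2 -0.99) and Cox6c of complex IV (log2 -0.70). Both fallen subunits changed sign under spike-in scaling. Slc25a5, the carrier that exchanges ADP and ATP across the mitochondrial membrane, rose to 783 and 790 CPM in Mut, against 464 and 474 CPM in WT (log2 0.75, SE 0.103, adjusted p = 0.0307).

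Proteasome subunits and a chaperone rose as well. Of 33 proteasome genes Psma1 (log2 0.97, adjusted p = 0.036) and Psmd14 (log2 1.02, adjusted p = 0.0463) rose and 0 fell, 15 were higher and 1 lower at an unadjusted p below 0.05, and the median was 0.38. Hspa8, the constitutive Hsc70 chaperone, was at 280 and 247 CPM in Mut and at 94.3 and 111 CPM in WT (log2 1.36, SE 0.178, adjusted p = 0.0292). It was the call among 20 heat shock chaperones, whose median was -0.02. Fth1, the ferritin heavy chain that stores iron, rose by 0.53 (SE 0.0745, adjusted p = 0.0313), and Serinc3, a membrane protein, by 0.90 (SE 0.101, adjusted p = 0.0225). Lpcat2, an enzyme of platelet-activating factor synthesis, was at 110 and 92 CPM in Mut and at 20.3 and 22.3 CPM in WT (log2 2.25, SE 0.272, adjusted p = 0.0235). Without any single Mut or KO library the calls of the mitosis, replication, citric acid cycle, glycolysis, oxidative phosphorylation and proteasome lists numbered 0. When single libraries were left out, the medians of the mitosis, replication and citric acid cycle lists ranged from 0.32 to 0.45, 0.29 to 0.35 and 0.38 to 0.59. Those of the glycolysis, oxidative phosphorylation and proteasome lists ranged from 0.46 to 0.55, -0.03 to 0.13 and 0.31 to 0.54.

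The largest rises by fold came from genes with few or no counts in WT. Ehd3, a protein of endosome recycling, had 580 and 455 counts in Mut and 0 and 0 in WT, at least 206-fold higher by the limit of 3 counts over the group (adjusted p = 0.0225). Arhgef11, a guanine nucleotide exchange factor, had 394 and 201 counts in Mut and 0 and 0 in WT, at least 118-fold higher (adjusted p = 0.0313). Tcaf1, a regulator of TRP channels, was at least 86.6-fold higher (adjusted p = 0.0392). Prg2 was higher by a count ratio of 92.5 (95% interval 25.4 to 768, exact Poisson, counting error alone, adjusted p = 0.0152). Among genes that reached 100 counts on average in Mut and were measured above 0 in both WT libraries, Ly6c2, Snx7, Oip5, Disp1, Toe1, Golm1, Gas8, Polrmt and Copg2 rose by 2.51 to 5.67 on the log2 scale. Polrmt, the mitochondrial RNA polymerase, had 73.8 and 61.1 CPM in Mut and 4.48 and 7.68 CPM in WT. Golm1, a Golgi membrane protein, had 78.7 and 45.7 CPM in Mut and 3.36 and 5.55 CPM in WT. Over all genes tested, 546 had 0 counts in both WT libraries and 101 in both Mut libraries.

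Ribosomal RNA sequence fell in Mut. Rn45s, the precursor of the large ribosomal RNAs, was at 9616 and 10694 CPM in Mut, at 24582 and 24963 CPM in KO, and at 37470 and 38169 CPM in WT (Mut against WT log2 -1.90, SE 0.0497, adjusted p = 7.52e-06). The 3 groups did not overlap. Lars2, the mitochondrial leucyl-tRNA synthetase, was at 4665 and 4317 CPM in Mut, at 12620 and 12766 CPM in KO, and at 18085 and 19556 CPM in WT (log2 -2.07, SE 0.0552, adjusted p = 7.52e-06). The ratio of Rn45s to Lars2 counts was 2.06 and 2.48 in Mut, 1.95 and 1.96 in KO, and 2.07 and 1.95 in WT. In MPP cells it was 2.52 and 3.0 in Mut and 5.10 and 4.35 in WT. Whether the Lars2 row counts its own mRNA was not tested. Lars2 was the call among 37 aminoacyl-tRNA synthetase genes, whose median was 0.15.

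A set of 15 cytosolic ribosomal protein genes fell relative to the median gene. Of 81 ribosomal protein genes tested 0 rose and 15 fell, 2 were higher and 32 lower at an unadjusted p below 0.05, and the median was -0.59, which became 0.51 under spike-in scaling. Rplp1, of the ribosomal stalk, was at 360 and 421 CPM in Mut, at 1009 and 885 CPM in KO, and at 1805 and 1914 CPM in WT (Mut against WT log2 -2.25, SE 0.118, adjusted p = 0.000405). Rps21 was at 172 and 208 CPM in Mut and at 658 and 667 CPM in WT (log2 -1.80, SE 0.165, adjusted p = 0.00907). Rps24 was at 300 and 310 CPM in Mut and at 680 and 686 CPM in WT (log2 -1.16, SE 0.112, adjusted p = 0.0108). Rps9 was at 717 and 777 CPM in Mut and at 1559 and 1650 CPM in WT (log2 -1.10, SE 0.0904, adjusted p = 0.0057). Among further fallen members, Rpl7, Rpl14, Rpl22, Rpl27a, Rpl37a, Rpl41, Rpsa, Rps4x, Rps20 and Rps28 differed by -0.64 to -1.65. In contrast Rpl4, the most abundant member, stood at 1609 and 1573 CPM in Mut and at 1261 and 1386 CPM in WT (log2 0.27, adjusted p = 0.154). Under spike-in scaling Rps9, Rpl7, Rpl14, Rpl22, Rpl41, Rpsa, Rps4x and Rps20 were above 0. Ribosomal protein genes have many processed pseudogenes, so their counts are uncertain. Of the fallen members Rplp1 alone kept its call without either Mut library, and most lost it without either KO library. The list median ranged from -0.65 to -0.52 when single libraries were left out.

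Of 77 mitochondrial ribosomal protein genes 0 were called by edgeR and 7, all higher, by DESeq2, 12 were higher and 1 lower at an unadjusted p below 0.05, and the median was 0.13. Ribosome assembly and polymerase I genes had 1 call of 36 tested, the nucleolar chaperone Npm1, which fell by 0.59 (SE 0.105, adjusted p = 0.04998), and a median of 0.00. Of 38 translation factors 3 fell and 0 rose. They were Eef1b2 (log2 -0.78), an exchange factor of elongation, Eif5b (log2 -1.18), which joins the ribosomal subunits, and Nap1l1 (log2 -0.85), a histone chaperone kept in this list. Eef1a1, the most abundant elongation factor, was at 2710 and 2650 CPM in Mut and at 2589 and 2633 CPM in WT (log2 0.04, adjusted p = 0.781). Under spike-in scaling Npm1, Eef1b2 and Nap1l1 were above 0.

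Malat1, Kcnq1ot1 and genes of splicing and chromatin fell in Mut. Malat1, an abundant noncoding RNA of nuclear speckles, was at 6410 and 6319 CPM in Mut, at 10342 and 10336 CPM in KO, and at 12536 and 13528 CPM in WT (Mut against WT log2 -1.03, SE 0.0464, adjusted p = 0.00022, and 0.06 under spike-in scaling). Kcnq1ot1, the long antisense RNA of an imprinted cluster, was at 147 and 102 CPM in Mut and at 374 and 378 CPM in WT (log2 -1.59, SE 0.193, adjusted p = 0.0235). It overlaps Kcnq1, and the strand setting of the counting is not given in the sources used here. Zfas1, a host of small nucleolar RNAs, fell to 112 and 124 CPM in Mut, against 274 and 267 CPM in WT (log2 -1.19, SE 0.152, adjusted p = 0.026). Gas5, another such host, rose to 984 and 1037 CPM in Mut, against 625 and 502 CPM in WT (log2 0.84, SE 0.133, adjusted p = 0.0388). Of 21 noncoding RNAs and snoRNA hosts tested, 1 rose and 4 fell, and 1 was higher and 10 lower at an unadjusted p below 0.05. Their median was -0.59, or 0.47 under spike-in scaling.

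Of 42 splicing factors 0 rose and 3 fell, 3 were higher and 18 lower at an unadjusted p below 0.05, and the median was -0.29, or 0.82 under spike-in scaling. Ddx17, an RNA helicase, was at 229 and 209 CPM in Mut and at 726 and 647 CPM in WT (log2 -1.65, SE 0.126, adjusted p = 0.00518). Luc7l2, of the U1 particle, was at 135 and 135 CPM in Mut and at 324 and 283 CPM in WT (log2 -1.17, SE 0.148, adjusted p = 0.026), and Srrm2, a scaffold of nuclear speckles, fell by 0.68 (SE 0.114, adjusted p = 0.0444). Acin1, of the complex laid down at exon junctions, was at 140 and 136 CPM in Mut and at 374 and 394 CPM in WT (log2 -1.48, SE 0.143, adjusted p = 0.0108). Sfpq, a paraspeckle protein, fell by 0.91 (SE 0.146, adjusted p = 0.0392). Among 43 polycomb and trithorax genes 0 rose and 2 fell, 0 were higher and 16 lower at an unadjusted p below 0.05, and the median was -0.33, or 0.77 under spike-in scaling. Kmt2a, the histone methyltransferase also known as Mll, was at 130 and 130 CPM in Mut and at 383 and 274 CPM in WT (log2 -1.34, SE 0.190, adjusted p = 0.0313). Arid1a, a subunit of the BAF remodelling complex, was at 162 and 164 CPM in Mut and at 415 and 287 CPM in WT (log2 -1.11, SE 0.192, adjusted p = 0.0476). Srrm2, Sfpq and Arid1a were above 0 under spike-in scaling. The calls of the splicing list were lost without either Mut library and in part without either KO library. Its median ranged from -0.36 to -0.25 when single libraries were left out. The calls of the polycomb and trithorax list were lost without any single Mut or KO library. Its median ranged from -0.42 to -0.22 when single libraries were left out.

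Genes of the immediate early response, which are switched on within minutes by stimulation and also by cell handling, included 4 that fell in Mut. Of 30 tested 0 rose and 4 fell, 2 were higher and 13 lower at an unadjusted p below 0.05, and the median was -0.78, or 0.42 under spike-in scaling. Nr4a1, an orphan nuclear receptor, was at 143 and 128 CPM in Mut and at 374 and 425 CPM in WT (log2 -1.56, SE 0.149, adjusted p = 0.0108). Klf4, a transcription factor of monocytes, was at 26.3 and 29.4 CPM in Mut and at 126 and 104 CPM in WT (log2 -2.04, SE 0.281, adjusted p = 0.0307). Klf10, induced by TGF-beta, was at 89.6 and 83.5 CPM in Mut and at 202 and 205 CPM in WT (log2 -1.24, SE 0.166, adjusted p = 0.0292). Fosb, an AP-1 subunit, was at 332 and 327 CPM in Mut and at 633 and 748 CPM in WT (log2 -1.07, SE 0.122, adjusted p = 0.0225, and 0.02 under spike-in scaling). The most abundant members differed little. Fos was at 5165 and 5026 CPM in Mut and at 5469 and 5265 CPM in WT (log2 -0.07, adjusted p = 0.456), and Jun at 3151 and 3762 CPM in Mut and at 2662 and 2942 CPM in WT (log2 0.30, adjusted p = 0.238). RefSeq windows were listed for Fosb, Nr4a1 and Klf4, and 0 of the 3 hold TGACGTCA (the CRE, in 1.79% of all windows), TGANTCA (AP-1, 7.81%) or the CArG box (1.63%) on either strand. Only full matches to these letters were counted. At such shares 3 windows cannot show that sites of these kinds are lacking. The 4 calls of the list were lost without any single Mut or KO library. The list median ranged from -1.03 to -0.50 when single libraries were left out.

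Regulators of other routes were among the fallen. Per1, a repressor of the circadian clock, was at 38.1 and 45.7 CPM in Mut and at 172 and 155 CPM in WT (log2 -1.96, SE 0.231, adjusted p = 0.0225), the call among 17 clock genes. Notch1, the receptor that directs T cell fate, was at 114 and 112 CPM in Mut and at 293 and 208 CPM in WT (log2 -1.15, SE 0.197, adjusted p = 0.0466). Myb, a transcription factor needed by blood progenitors, was at 458 and 475 CPM in Mut and at 793 and 731 CPM in WT (log2 -0.71, SE 0.103, adjusted p = 0.0328, and 0.40 under spike-in scaling). Nfkbia, the feedback inhibitor of NF-kB, fell by 0.75 (SE 0.128, adjusted p = 0.0456, and 0.36 under spike-in scaling). Ptma, the chromatin protein prothymosin alpha, was at 971 and 1061 CPM in Mut and at 2150 and 2097 CPM in WT (log2 -1.06, SE 0.0841, adjusted p = 0.00554, and 0.05 under spike-in scaling). Cops9, of the COP9 signalosome, fell by 1.41 (SE 0.143, adjusted p = 0.0135). Slc16a11 (log2 -3.30), Slc26a11 (-2.96) and Rapgef2 (-2.50) had the largest fitted falls among called and named genes with at least 100 counts on average in WT, followed by Rplp1, Lars2 and Klf4. Fyco1, which links autophagosomes to motors, N4bp1, an inhibitor of NF-kB signalling, and Ptbp2, a splicing repressor, fell by 2.02, 1.90 and 1.81.

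Stem cell genes had 0 calls by edgeR among 30 tested, with 2 higher and 7 lower at an unadjusted p below 0.05, and 2 higher and 5 lower by DESeq2. Their median was -0.28, or 0.82 under spike-in scaling. The summed level of the list was 3472 and 3240 CPM in Mut and 3348 and 3281 CPM in WT. Hlf, a transcription factor of stem cells, was at 124 and 124 CPM in Mut and at 250 and 188 CPM in WT (log2 -0.81, adjusted p = 0.0916). Slamf1, the CD150 receptor of long-term stem cells, was at 2.77 and 5.80 CPM in Mut and at 29.8 and 44.9 CPM in WT (log2 -3.12, adjusted p = 0.165). Hoxa9 was at 87.1 and 112 CPM in Mut and at 171 and 235 CPM in WT (log2 -1.03, adjusted p = 0.0782). Of 17 Hox and Meis genes 0 were called by edgeR, while DESeq2 called 1 higher and 1 lower. At an unadjusted p below 0.05, 1 was higher and 2 lower, or 0 and 2 among the 16 with counts in both groups. The gate itself was visible in every library. Kit was at 609 and 515 CPM in Mut and at 606 and 661 CPM in WT (adjusted p = 0.475), and Ly6a, which encodes Sca-1, at 128 and 132 CPM in Mut and at 99.0 and 62.5 CPM in WT (adjusted p = 0.196). Of 14 genes for surface proteins used in gating 3 rose and 0 fell, and the median was 0.04. Without adjustment 5 were higher and 3 lower at p below 0.05, and DESeq2 called 4 higher and 3 lower. Flt3, a receptor of this list, was at 790 and 755 CPM in Mut and at 915 and 1020 CPM in WT (log2 -0.32, adjusted p = 0.16). Cd48, which multipotent progenitors carry and long-term stem cells lack, was at 248 and 240 CPM in Mut and at 122 and 133 CPM in WT (log2 0.94, SE 0.150, adjusted p = 0.0392). Ly6e, a relative of Sca-1, rose by 0.55 (SE 0.0927, adjusted p = 0.044). Among 21 lymphoid priming genes 1 rose and 1, Notch1, fell, with a median of -0.38, or 0.70 under spike-in scaling. At an unadjusted p below 0.05, 2 were higher and 6 lower, and DESeq2 called 2 higher and 5 lower. Dntt, which adds bases at receptor gene joints, was at 239 and 233 CPM in Mut and at 461 and 340 CPM in WT (adjusted p = 0.0842).

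**Figure D4:**
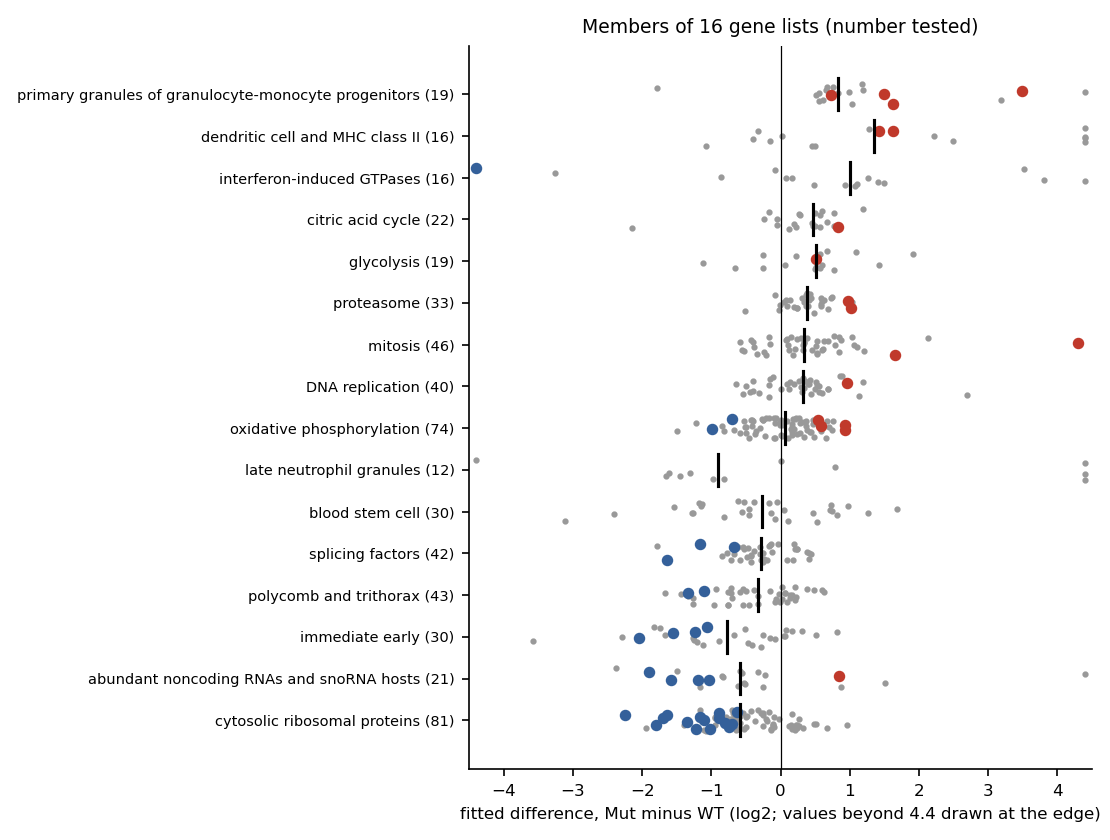
Fitted log2 differences (Mut minus WT, horizontal axis) of the members of 16 gene lists, with the number tested in brackets. Points are genes, red where called higher and blue where called lower, and black bars are list medians. The medians run from 1.34 for dendritic cell and MHC class II genes to -0.90 for late neutrophil granules. The first is 0.50 without members at 0 counts in both WT libraries, and the second -1.31 among the 7 with counts in both groups. Under spike-in scaling, which moved the median of all genes to 1.10, every one of these list medians was above 0.

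Called genes differed in length from the genes tested. By the longest transcript in GENCODE M21, the median was 2178 bases for the 71 higher genes, 4047 bases for the 95 of 97 lower genes with an entry, and 3267 bases for the 12911 of 13170 tested genes with an entry. Transcripts of at least 6000 bases made up 2.82% of the higher genes, 31.6% of the lower genes and 13.5% of all tested. Transcripts under 1000 bases made up 5.63%, 10.5% and 5.81% in that order. The lower genes thus held both long transcripts, such as those of Kmt2a and Kcnq1ot1, and short ones, such as those of Rplp1 and Rps21. The part of length in the calls was not tested.

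Comparisons of Mut and of KO with WT share the WT libraries, so Mut was set against KO directly. In LSK cells that test gave 8 calls of 13170 genes (0.0607%), 7 of which were among the 168. Rplp1 (log2 -1.28, adjusted p = 0.0186), Lars2 (-1.50, adjusted p = 9.81e-05), Rn45s (-1.29, adjusted p = 9.81e-05), Malat1 (-0.70, adjusted p = 0.00267), Rps9 (-0.82, adjusted p = 0.049) and Gbp2b were lower in Mut than in KO. Prg2 was lower in Mut than in KO as well, at 7.30 and 10.6 CPM in Mut and 151 and 145 CPM in KO (log2 -4.05, adjusted p = 0.049). For Mpo the difference was 0.20 (adjusted p = 0.977), with Mut at 4902 and 4558 CPM and KO at 4178 and 4044 CPM. For Elane it was 1.35 (adjusted p = 0.162), with Mut at 491 and 491 CPM and KO at 201 and 183 CPM.

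Whether Mut and WT differ alike in both populations was tested as the difference in LSK minus that in MPP, fitted over all 12 libraries with 355 of 14033 genes called (2.53%). Of the 168 genes, 114 were called here, 53 of the 71 higher and 61 of the 97 lower, each with the sign of its LSK difference. The 168 were chosen by their LSK difference, which is part of this contrast. That share and those signs are therefore set in part by the choice. Mpo differed by 1.69 (adjusted p = 3.17e-07) and Elane by 2.34 (adjusted p = 0.000137). In MPP cells Elane was at 7829 ± 349 CPM in Mut and 12675 ± 521 CPM in WT (SD, n = 2). Lars2 differed by -2.63 (adjusted p = 4.59e-08), being 0.58 higher in Mut than in WT in MPP cells (adjusted p = 0.003). Rplp1 differed by -2.11 (adjusted p = 4.98e-05), with 394 ± 15.6 CPM in Mut and 429 ± 23.6 CPM in WT in MPP cells. Within MPP cells 13 genes were called between Mut and WT (0.0926%), and 5 of them were among the 168. Gas5, Hspa8 and Gbp2b moved the same way in both populations, and Lars2 and Prg2 moved opposite ways. Gas5 was at 643 ± 53.4 CPM in Mut and 225 ± 17.5 CPM in WT in MPP cells (log2 1.52, adjusted p = 0.00166). Gbp2b had 0 CPM in both MPP Mut libraries and 4.20 ± 1.70 CPM in MPP WT.

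**Figure D5:**
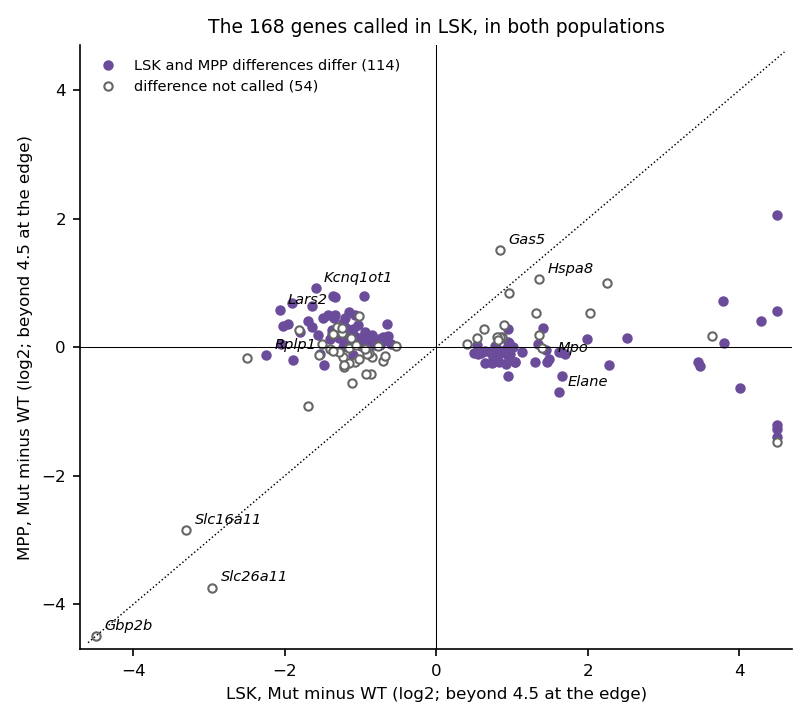
Log2 differences, Mut minus WT, of the 168 genes called in LSK cells, in LSK (horizontal axis) and in MPP cells (vertical axis), with values beyond 4.5 drawn at the edge. Filled points are the 114 genes whose LSK and MPP differences differ by the test over 12 libraries, and open points the other 54. The genes were chosen by their LSK difference, which is part of that test. In MPP cells 138 of the genes differ by less than 0.5 in size, while Gas5, Hspa8 and Gbp2b lie near the dotted line of equal differences.

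None of the Y-linked genes tested was called in the fit of all 6 LSK libraries. The Y-linked gene Eif2s3y was at 104 and 131 CPM in Mut and at 111 and 99.6 CPM in WT (adjusted p = 0.787), Ddx3y at 110 and 72.3 CPM in Mut and at 162 and 157 CPM in WT (adjusted p = 0.172), and Kdm5d and Uty were detected in all 4 libraries (adjusted p = 0.739 and 0.553). Eif2s3y overlapped between the groups, while Ddx3y was lower in both Mut libraries than in either WT library, and was the 1 of these genes with an unadjusted p below 0.05. Uty was at 19.3 and 22.1 CPM in Mut and at 10.7 and 74.2 CPM in WT, and it passed without WT replicate 1 (log2 -1.84). Xist, the RNA of the inactive X chromosome, had 10 and 5 counts in Mut and 0 and 0 in WT.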

How the data were processed

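RNA of sorted LSK and MPP cells was amplified, barcoded and sequenced as 150 bp pairs, per the labels' protocols. Per the submitters' processing notes, Trim Galore 0.4.1 removed adaptors, TopHat2 2.0.13 aligned the pairs to mm10, and HTSeq 0.6.1 and Cufflinks are named without a role. The annotation and strand setting are not given in the sources used here. The deposited values are raw counts per gene symbol (24538 genes and 92 spike-ins, per the file headers and rows), with no scaling by the authors.

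Counts were tested with edgeR 4.0.16 in R 4.3.3 (quasi-likelihood F test, two-sided, Benjamini-Hochberg over all genes tested). Genes were filtered by filterByExpr (minimum count 10, minimum total 15) and scaled by TMM. The 6 LSK libraries shared the estimate of the spread (3 residual degrees of freedom), and all 12 libraries served for LSK minus MPP (6 degrees of freedom). CPM use the TMM-scaled library size. The procedure was tested on simulated data. These were drawn with a spread common to all libraries, so that test does not cover the wider spread between the WT replicates. Log2 differences are fitted, Mut minus WT, with SE from the F statistic. DESeq2 1.42.0 was an alternative. Gene counts of the 4 libraries ran from 9181027 to 17186565.

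The genes named were up to 14 in each direction by fitted change (libraries not overlapping, at least 100 counts on average in the higher group), up to 12 in each direction by p (at least 50 counts in each of the 4 libraries), all called members and abundant members of 50 gene lists, the Tet family, sex-linked genes, and those called without each library in turn. Unnamed or predicted loci, small RNAs, antigen receptor segments, mitochondrially encoded genes and spike-ins were left out. Some genes that entered the fits and the counts are not reported here by name. The members and the gene lists were chosen with earlier results of these data known. Gene positions and transcript lengths are from GENCODE M21 and upstream sequences from RefSeq, both of GRCm38. An MPP column whose name does not match a title was used as an unnumbered MPP KO library.

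Tried besides were 4 other scalings, DESeq2, 2 other filters, a fold threshold, the spread of the compared groups alone, a replicate block, leaving out each library, and leaving out Rn45s and Lars2. Same-numbered libraries did not deviate together (correlation of deviations from the group means -0.01 for Mut and WT), so the numbers were not used to pair them.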

Additional observations from a re-analysis of the deposited data

Results flagged for a closer look

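Of the 24 genes named by p or by being called without each library, 19 had a Mut difference in LSK cells that differed from that in MPP cells by the test over 12 libraries, and are listed for that reason as the difference in LSK minus that in MPP (log2). Among genes higher in LSK Mut than in LSK WT, it was 1.69 for Mpo, 2.34 for Elane, 1.74 for Aurkb, 1.13 for Cd74, 0.96 for Idh2, 0.92 for Slc25a5 and 0.68 for B2m.

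Among genes lower in LSK Mut than in LSK WT, it was -2.63 for Lars2, -1.69 for Rn45s, -1.36 for Malat1, -1.21 for Ptma, -2.27 for Ddx17, -1.74 for Nr4a1, -1.51 for Cops9 and -1.18 for Acin1. For ribosomal protein genes it was -2.11 for Rplp1, -2.03 for Rps21, -1.33 for Rps24 and -0.96 for Rps9.

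These genes were chosen by their LSK difference, which is part of each of these values, and the LSK WT libraries enter each of them. Rn45s took 0.982% and 1.09% of gene counts in LSK Mut and 3.65% and 3.70% in LSK WT, against 0.873% and 1.02% in MPP Mut and 1.10% and 1.02% in MPP WT. The part of the LSK WT libraries in the differences above was not tested beyond leaving out each of them.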

How the results depend on the processing

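Mut against WT in LSK (168 calls) gave 163 calls with DESeq2's size factors in edgeR, 204 with library size alone, 204 with upper quartile scaling, 161 without Rn45s and Lars2 and 236 among genes averaging 50 counts. It gave 3002 under spike-in scaling (2980 higher, 22 lower), 1409 by DESeq2 (which kept all 168), 475 with no filter, 19 at a fold of at least 1.5, 5 with the spread of the 4 libraries alone, and 5 to 2631 without single libraries. Library size alone and upper quartile scaling gave 120 higher and 84 lower, and 114 higher and 90 lower, against 71 and 97. Mut against KO (8) gave 116 by DESeq2, 22 with no filter, 3 at a fold of at least 1.5, 3 without Rn45s and Lars2, 36 with the spread of its own groups, and 2 to 65 without single libraries. The difference between LSK and MPP (355) gave 5428 under spike-in scaling, 1093 by DESeq2, 662 with no filter, 56 at a fold of at least 1.5, 54 with the spread of its own groups, and 88 to 1425 without single libraries. The cause of these changes was not tested.

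A replicate block gave 35, 5 and 16 calls for the 3 comparisons. The labels number technical replicates and the deviations of same-numbered libraries correlated at -0.01 (Mut and WT) and 0.04 (Mut and KO), so the numbers do not pair the libraries.

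Spike-in scaling, which moved the median of all genes to 1.10, turned the sign of Tet2 (0.33), Tet1 (0.82), Tet3 (0.54), Malat1 (0.056), Ptma (0.052), Myb (0.40), Fosb (0.016), Nfkbia (0.36), Rps9 (0.0063), Rpl7 (0.35), Rpl14 (0.12), Rpl22 (0.19), Rpl41 (0.45), Rpsa (0.21), Rps4x (0.40), Rps20 (0.31), Npm1 (0.51), Eef1b2 (0.32), Nap1l1 (0.23), Ndufa2 (0.11), Cox6c (0.41), Sfpq (0.22), Arid1a (0.014), Srrm2 (0.39), Ddx3y (0.21) and Kdm5d (0.52). Without Mut replicate 2 Eif2s3y turned to -0.011 (highest 0.33), and without WT replicate 2 Kdm5d turned to 0.61 (lowest -1.10) and Uty to 0.95 (lowest -1.84). Tet2 ranged from -1.0 to -0.54 without single libraries. Most called genes named lost their call with either Mut library left out. They kept it with either WT library left out, where the WT pair, the least alike, no longer enters the spread. Low-level genes are limited by depth (a count of 0 allows up to 0.327 and 0.248 CPM in WT). Replicate agreement is a further limit, since 169 genes that averaged 50 counts or more in WT had 0 counts in 1 of the WT libraries.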

Other observations

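Lists not described above gave few calls, as did all genes tested (1.28%). Endoplasmic reticulum folding genes had 0 calls by edgeR among 31 tested, with 10 higher and 2 lower at an unadjusted p below 0.05 and a median of 0.30. Hspa5, the main chaperone of that compartment, was at 1054 and 1054 CPM in Mut and at 822 and 762 CPM in WT (adjusted p = 0.0758). Nucleotide synthesis genes had 6 higher and 0 lower without adjustment among 25 tested (median 0.30), and lysosome and autophagy genes 6 higher and 1 lower among 31 (median 0.26), with Fyco1 the call.

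Replication-dependent histone genes showed 1 higher and 2 lower among 44 without adjustment, and a median of -0.03. Of 19 cytokine receptor genes 1 was higher and 2 lower without adjustment (median 0.04), with Csf3r, the G-CSF receptor, at 223 and 190 CPM in Mut and at 247 and 328 CPM in WT (adjusted p = 0.213). Of 13 inflammasome genes Naip5, a sensor of flagellin, was at 24.6 and 20.1 CPM in Mut and at 94.2 and 96.6 CPM in WT (log2 -2.09, SE 1.03, adjusted p = 0.321). Its library values do not overlap between the groups, and its relatives are near-identical in sequence, so its count is uncertain.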
